A study of Caenorhabditis elegans with 36 samples.

Results

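Muscle contracts through sarcomeres, in which thick filaments of myosin slide along thin filaments of actin. In *C. elegans* the thick filament of body wall muscle is built from myosin heavy chains and paramyosin, while tropomyosin and the troponin complex sit on the thin filament and make contraction depend on calcium. The pharynx, the feeding organ, has muscle of its own with its own myosin heavy chains. Because filament proteins range from very short to giant, their mRNAs can carry very different numbers of ribosomes, and *ppp-1*, mutated here, encodes the gamma subunit of eIF2B, the factor that recharges eIF2 for translation initiation.

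The 10 genes described are *unc-54*, *myo-1*, *myo-2* and *myo-3* (myosin heavy chains), *unc-15* (paramyosin), *mlc-3* (a myosin light chain), *unc-22* (twitchin, a giant kinase of the thick filament), *lev-11* (tropomyosin), *unc-27* (troponin I) and *tnt-2* (troponin T). They were taken by gene name from a table of 41875 loci, with earlier results of these data known. Each was found as 1 locus under its own name. All 10 had at least 1 FPKM (fragments counted per kilobase of an mRNA and scaled to sequencing depth) in all 9 groups, as did 11194 loci in the whole table, called all loci below.

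RNA came from WT (Bristol N2), *ppp-1(wrm10)* and *ppp-1(wrm15)* hermaphrodites at day 1 of adulthood, without treatment. Both alleles are point mutations from a chemical mutagenesis screen. Each group pooled whole animals of all tissues, so that fewer muscle cells and less mRNA per muscle cell cannot be told apart. From each genotype the total lysate, the monosome fraction (single ribosomes) and the polysome fraction (disomes left out) of a sucrose gradient were sequenced after ribosomal RNA depletion, which gives 9 groups of 4 libraries, 36 in all. The sequenced animals carried no reporter by the labels, although the study's muscle aggregation reporters use the *unc-54* promoter. The values are 1 pooled FPKM per group. The spread between the 4 libraries and their depth are therefore unknown, no difference could be tested, and neighbouring levels cannot be called distinct. Differences are given as sizes on the log2 scale, and 1.5-fold (0.58 on that scale) serves as a mark of size only.

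The 10 mRNAs together made up 0.192% of the summed FPKM of total RNA in WT, 0.451% of the polysomal RNA and 0.398% of the monosomal RNA. In *ppp-1(wrm10)* the same shares were 0.196%, 0.439% and 0.339%, and in *ppp-1(wrm15)* they were 0.173%, 0.392% and 0.325%. The filament mRNAs thus made up a larger share of both ribosome fractions than of the lysate in every genotype. On this scale a rise was common: 47.2% of all loci were at least 1.5-fold higher in polysomal than in total RNA in every genotype. For monosomal RNA 37.7% of all loci were. The members' combined share of monosomal RNA was lower in both mutants than in WT.

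**Figure D1:**
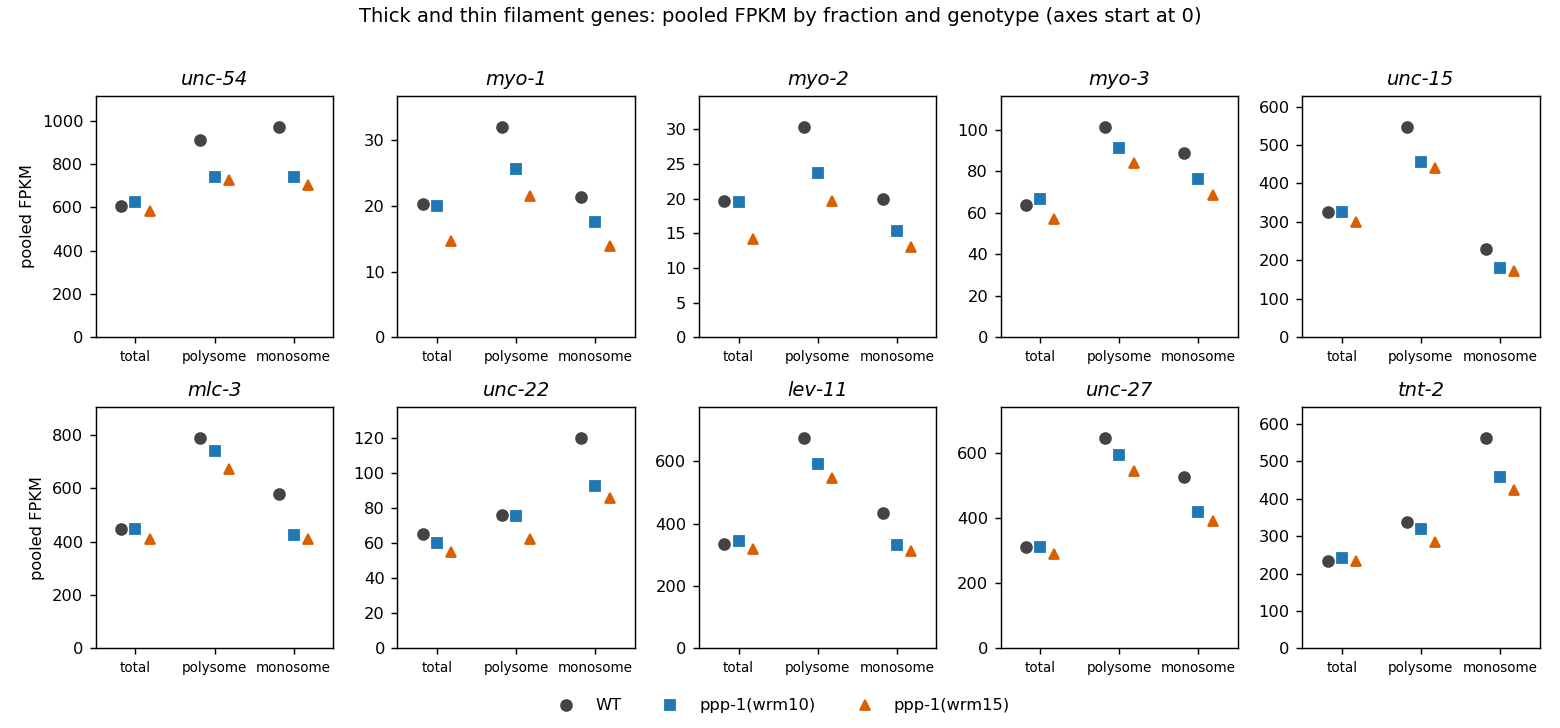
Pooled FPKM of each gene in total, polysomal and monosomal RNA, 1 point per genotype and no error bars because only pooled values exist. The vertical axes start at 0 and differ between genes; in the monosome columns the WT point lies above both mutant points in all 10 genes.

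Among the thick filament genes, *unc-54*, the major myosin heavy chain of body wall muscle (chromosome I, 14855901 to 14863573, WBcel235), had the highest total level. Its total RNA was at 605 FPKM in WT, 623 for *ppp-1(wrm10)* and 585 for *ppp-1(wrm15)*. Its polysomal RNA was at 911, 741 and 726 FPKM in that order of genotypes, and its monosomal RNA at 970.4, 738 and 703 FPKM. By level, *unc-54* stood at rank 249 of the 41875 loci in WT total RNA, rank 162 in polysomal and rank 153 in monosomal RNA. *unc-54* was near its WT level in mutant lysates, and WT was the highest of the genotypes in both ribosome fractions.

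The second body wall heavy chain, *myo-3*, which occupies the middle of the thick filament (chromosome V, 12226816 to 12234343), was at 64.0, 66.5 and 57.2 FPKM in total RNA of WT, *ppp-1(wrm10)* mutants and *ppp-1(wrm15)* mutants. Its polysomal levels were 101, 91.5 and 83.9 FPKM, and its monosomal levels 88.8, 76.4 and 68.7 FPKM. *unc-54* exceeded *myo-3* by 8.09-fold to 10.9-fold across the 9 groups, comparing FPKM, a level per length. The annotation places 3 noncoding RNAs inside the *myo-3* locus and 2 inside that of *myo-1*.

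The pharyngeal heavy chains *myo-1* (chromosome I, 7258915 to 7267226) and *myo-2* (chromosome X, 12468061 to 12475348) were the lowest members. *myo-1* total RNA was at 20.3, 20.0 and 14.6 FPKM, its polysomal RNA at 32.0, 25.6 and 21.5 FPKM, and its monosomal RNA at 21.4, 17.5 and 13.9 FPKM. *myo-2* was at 19.6, 19.5 and 14.2 FPKM in total, at 30.3, 23.7 and 19.6 FPKM in polysomal and at 20.0, 15.4 and 13.1 FPKM in monosomal RNA. The pair stayed close together, with *myo-2* at 0.879 to 0.975 times *myo-1* in all 9 groups. By contrast the ratio of *unc-54* to *myo-2* in total RNA was 30.8 in WT, 32.0 for *ppp-1(wrm10)* and 41.3 for *ppp-1(wrm15)*.

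Paramyosin, the rod protein in the core of invertebrate thick filaments, is encoded by *unc-15* (chromosome I, 7376604 to 7383197). Its total RNA was at 327, 326 and 299.6 FPKM, its polysomal RNA at 547, 455 and 440.4 FPKM and its monosomal RNA at 229, 179.8 and 173 FPKM. It was the one member with a monosomal level below its total level in WT. As a result the ratio of *unc-54* to *unc-15* depended on the fraction: it was 1.85 to 1.95 in the lysate, 1.63 to 1.67 in polysomes and 4.06 to 4.24 in monosomes, and in each fraction the genotypes lay close together.

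*mlc-3*, whose product binds the neck of the myosin head (chromosome III, 5565025 to 5567382), was at 447, 447 and 411 FPKM in total RNA. Its polysomal RNA was at 787, 741 and 674 FPKM and its monosomal RNA at 579.5, 423 and 411 FPKM. It was the next most abundant member after *unc-54* in the lysate. In polysomal RNA of *ppp-1(wrm10)* the ratio of *unc-54* to *mlc-3* was 0.999, against 1.16 in WT and 1.08 in *ppp-1(wrm15)*.

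Twitchin is a giant protein of the thick filament, named for the twitching of animals that lack it. *unc-22* (chromosome IV, 11970534 to 12011007) was at 65.3, 60.4 and 55.3 FPKM in total RNA. Its polysomal RNA was at 76.2, 75.4 and 62.5 FPKM, and its monosomal RNA at 119.99, 92.8 and 86.0 FPKM. It was higher in monosomes than in polysomes in every genotype. The locus also holds 22 other annotated genes, 2 of them coding for proteins, and whether their reads were kept apart was not tested.

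On the thin filament, *lev-11* (chromosome I, 14621173 to 14631254), which encodes tropomyosin in 20 annotated coding isoforms, was at 336, 344 and 319 FPKM in total RNA. Its polysomal RNA was at 673, 592 and 545 FPKM and its monosomal RNA at 434, 331 and 311 FPKM. *unc-27*, the inhibitory troponin subunit of body wall muscle (chromosome X, 8789456 to 8790621), was at 312, 312 and 291 FPKM in total, 645, 593 and 544 FPKM in polysomal and 526, 418 and 389.9 FPKM in monosomal RNA. Both were about 2 times as high in polysomes as in the lysate of WT, at 2.00-fold for *lev-11* and 2.06-fold for *unc-27*.

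*tnt-2*, which encodes the subunit that ties troponin to tropomyosin (chromosome X, 8721557 to 8723552), showed another distribution. Its total RNA was at 234.7, 243 and 234 FPKM, its polysomal RNA at 338, 319 and 285 FPKM and its monosomal RNA at 561, 458 and 422 FPKM. It was higher in monosomes than in polysomes in all 3 genotypes. The ratio of *unc-27* to *tnt-2* was 1.91 in WT polysomal RNA and 0.937 in WT monosomal RNA, so the order of these troponin mRNAs turned between fractions, and the same held in both mutants.

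All 10 members had more FPKM in polysomal than in total RNA in all 3 genotypes, against 49.2% of all loci. The excess was at least 1.5-fold in every genotype for *lev-11*, *mlc-3* and *unc-27*, that is 3 of 10, against 18.7% of all loci. The median log2 polysome/total ratio of the members was 0.66 in WT, 0.43 for *ppp-1(wrm10)* and 0.55 for *ppp-1(wrm15)*, beside 0.14, 0.076 and 0.084 over all loci. These ratios compare different RNA populations, and how these were scaled against each other is not given. Only the order of genes within a genotype is therefore free of the scaling. The order of the genotypes is not: rescaled to a common sum, the members' medians were 1.13 for WT, 1.02 for *ppp-1(wrm10)* and 1.16 for *ppp-1(wrm15)*.

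The monosome/total ratio divided the group. It was above 1 in all genotypes for 5 of 10 members, against 37.3% of all loci, and at least 1.5 in all genotypes for *tnt-2* and *unc-22*, against 6.74% of all loci. On the log2 scale it ranged in WT from -0.51 for *unc-15* to 1.26 for *tnt-2*. The polysome/monosome ratio was above 1 in all genotypes for 7 members, against 43.4% of all loci, and at least 1.5 for *unc-15*, *myo-2* and *lev-11*, against 18.8%. *unc-15* was at 2.39, 2.53 and 2.54 in WT, *ppp-1(wrm10)* mutants and *ppp-1(wrm15)* mutants, while *tnt-2* was at 0.603, 0.696 and 0.675 and *unc-22* at 0.635, 0.812 and 0.726.

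The members span a wide range of coding lengths, from 459 bases (153 codons) in *mlc-3* through 726 in *unc-27*, 852 in *lev-11*, 1284 in *tnt-2* and 2616 in *unc-15* to 5814 to 5907 in the 4 myosin heavy chains and 21474 bases (7158 codons) in *unc-22*, each taken from the longest annotated coding sequence. The longer members tended to have the lower polysome/total ratios, though not without exception. In WT *tnt-2*, at 0.53 on the log2 scale, lay below the longer *unc-15* at 0.74 and the 4 heavy chains at 0.59 to 0.66. Spearman's rho between coding length and this ratio over the 10 members was -0.71 in WT, -0.76 for *ppp-1(wrm10)* and -0.73 for *ppp-1(wrm15)*. Over the 9910 loci with a coding length it was -0.23, -0.20 and -0.15. These are descriptions across genes, which share libraries and are not independent. Without *unc-22* rho over the remaining members was -0.60 in WT, -0.75 for *ppp-1(wrm10)* and -0.63 for *ppp-1(wrm15)*. For the monosome/total ratio rho over the members was 0.091, 0.12 and 0.091, where all loci had 0.18, 0.15 and 0.26. The polysome/monosome ratio gave -0.33, -0.47 and -0.48 over the members, beside -0.37, -0.30 and -0.31 over all loci. By that ratio the members' rho in WT was no stronger than that of all loci.

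Within their own length class most members stood high in polysomes. In WT the median log2 polysome/total ratio was 0.41 for loci with under 600 coding bases, 0.22 from 600 to under 1500, -0.030 from 1500 to under 3000, -0.16 from 3000 to under 6000 and 0.049 from 6000 upward. Against these medians the 4 heavy chains lay at percentiles 88.9 (*unc-54*) to 92.7 (*myo-3*) of the 675 loci in their class. *unc-27* was at percentile 94.9, *lev-11* at 93.3, *unc-15* at 88.6, *mlc-3* at 72.9, *unc-22* at 70.8 and *tnt-2* at 66.3. All 10 were thus above the median of loci of like length. In the mutants *unc-54* moved to percentiles 75.6 and 76.6 of its class.

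In monosomes the same scale separated the members further. The WT median log2 monosome/total ratio of the length classes, from short to long, was -0.075, -0.10, 0.035, 0.28 and 0.65. *tnt-2* was at percentile 99.4 of its length class, *unc-27* at 94.9 and *unc-54* at 82.4, while *myo-1* was at 31.4, *myo-2* at 26.2 and *unc-15* at 17.5. The body wall and the pharyngeal heavy chains, which differ little in coding length, therefore lay on different sides of their class median in WT. In both mutants the body wall heavy chains lay below it too, *unc-54* at percentiles 44.9 and 33.6 and *myo-3* at 40.4 and 33.3 for *ppp-1(wrm10)* and *ppp-1(wrm15)*. The WT median log2 polysome/monosome ratio was -0.70 for loci with 6000 coding bases or more. A monosome excess like that of *unc-22* was thus common at this length. By this ratio *unc-22* was at percentile 52.6 of its class in WT, and at 66.4 and 67.2 in the mutants.

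**Figure D2:**
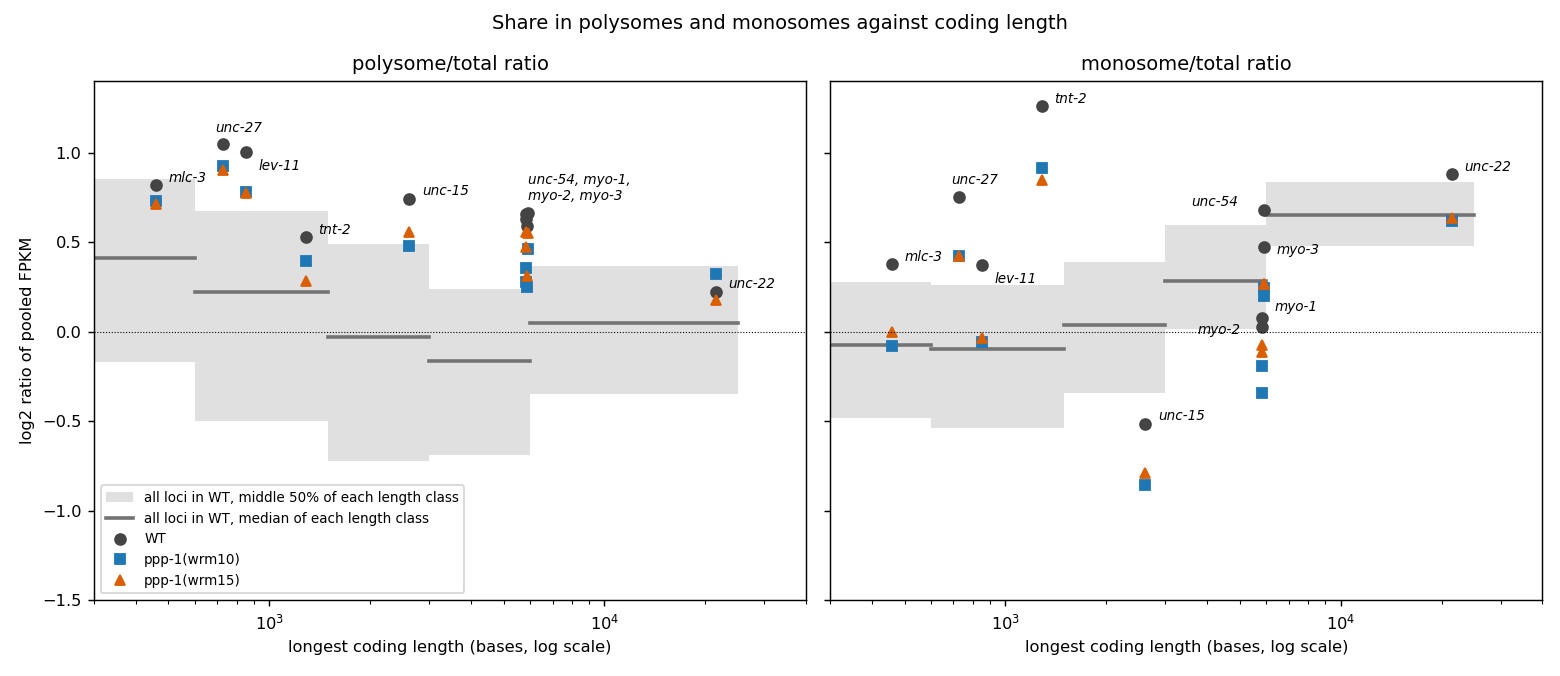
Log2 ratio of polysomal to total FPKM (left) and of monosomal to total FPKM (right) against the longest coding length on a log axis, 1 point per gene and genotype. Grey bars and bands give the WT median and middle 50% of all loci in 5 length classes; all 10 genes lie above the class median in the left panel in WT, while *unc-15* at -0.51 and *tnt-2* at 1.26 mark the range in the right panel.

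The mutants were compared with WT in each fraction to ask how the alleles altered the level and the ribosome association of these mRNAs. Both comparisons share the WT libraries, so they are not independent of each other. In total RNA the members' median log2 difference was -0.00098 for *ppp-1(wrm10)* and -0.12 for *ppp-1(wrm15)*, beside -0.063 and -0.039 over all loci. The level was below WT in 6 of 10 members in *ppp-1(wrm10)* (63.8% of all loci), with differences from -0.11 (*unc-22*) to 0.056 (*myo-3*). It was below WT in 10 of 10 in *ppp-1(wrm15)* (57.6% of all loci). Total RNA of the members in *ppp-1(wrm10)* thus stayed close to WT.

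In polysomal RNA all 10 members were below WT with *ppp-1(wrm10)* (63.4% of all loci) and with *ppp-1(wrm15)* (54.4% of all loci). The median was -0.17 and -0.30, beside -0.064 and -0.022 over all loci. In *ppp-1(wrm10)* the difference ran from -0.017 (*unc-22*) to -0.36 (*myo-2*), and with FPKM rescaled to a common sum per group only 6 of the 10 remained below WT. In *ppp-1(wrm15)* it ran from -0.22 (*mlc-3*) to -0.63 (*myo-2*), and all 10 remained below WT after that rescaling.

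The median difference was widest in monosomal RNA. All 10 members were below WT with *ppp-1(wrm10)* (60.2% of all loci) and with *ppp-1(wrm15)* (55.4% of all loci), also after rescaling or centring. The median was -0.36 and -0.47, beside -0.060 and -0.039 over all loci. Relative to those medians of all loci, a measure that no common scaling of a group can alter, the members' median was -0.30 for *ppp-1(wrm10)* and -0.43 for *ppp-1(wrm15)*. The same relative values were -0.10 and -0.27 for polysomes and 0.062 and -0.083 for the lysate. In *ppp-1(wrm10)* *mlc-3* had the widest monosomal difference at -0.45 and *myo-3* the narrowest at -0.22, and in *ppp-1(wrm15)* these were *myo-1* at -0.63 and *myo-3* at -0.37.

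Few single members passed the 1.5-fold mark. No member was lower by that much in total RNA, where 1.19% of all loci were for *ppp-1(wrm10)* and 2.05% for *ppp-1(wrm15)*. In polysomal RNA none was in *ppp-1(wrm10)* (2.41% of all loci) and 1, *myo-2*, was in *ppp-1(wrm15)* (2.97%). In monosomal RNA none was in *ppp-1(wrm10)* (1.82%) and 2, *myo-1* and *myo-2*, were in *ppp-1(wrm15)* (3.82%). No member was higher than WT by 1.5-fold in any fraction, while 8.63% and 8.00% of all loci were in total, 7.38% and 7.08% in polysomal and 9.88% and 8.76% in monosomal RNA of the alleles in the same order. At the deposited scaling the members' differences were thus of one direction in the ribosome fractions but mostly below 1.5-fold.

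**Figure D3:**
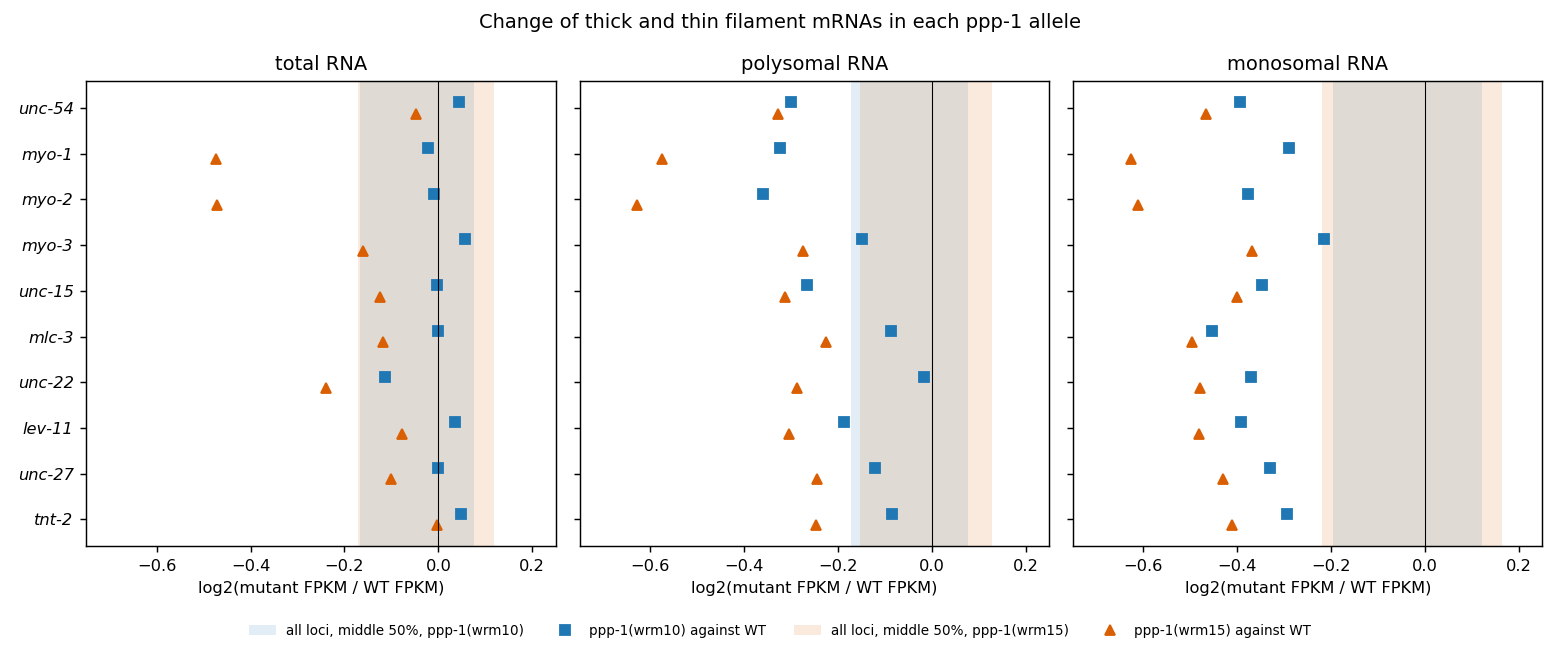
Log2 ratio of mutant to WT pooled FPKM for each gene in total, polysomal and monosomal RNA; squares are *ppp-1(wrm10)*, triangles *ppp-1(wrm15)*, and the shaded bands hold the middle 50% of all loci for each allele. In monosomal RNA all 20 points lie to the left of 0 and of the band of their own allele, and in total RNA *myo-1* and *myo-2* stand apart in *ppp-1(wrm15)* at -0.47 each.

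The polysome/total ratio, used in the study as a measure of translational efficiency, was lower than in WT in 9 of 10 members in *ppp-1(wrm10)* (54.8% of all loci), *unc-22* at 0.096 being the exception, and in 10 of 10 in *ppp-1(wrm15)* (50.7% of all loci). The median difference was -0.21 for *ppp-1(wrm10)* and -0.15 for *ppp-1(wrm15)*, beside -0.022 and -0.0030 over all loci. *unc-54* was at -0.34 and -0.28, *myo-2* at -0.35 and -0.16, *lev-11* at -0.22 and -0.23, and *mlc-3* at -0.086 and -0.11. No member was lower by 1.5-fold, as 2.39% and 2.47% of all loci were. After rescaling to a common sum, 7 members for *ppp-1(wrm10)* and 6 for *ppp-1(wrm15)* were lower than WT. When monosomal RNA served as denominator, the direction turned, to a median of 0.15 in each allele, since monosomal RNA was the fraction in which the members differed most from WT.

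The alleles were also set against each other, a comparison that leaves out the WT libraries. All 10 members were lower in *ppp-1(wrm15)* than in *ppp-1(wrm10)* in all 3 fractions, as were 22.1% of all loci. The members' median difference was -0.12 in total, -0.13 in polysomal and -0.11 in monosomal RNA, beside 0.017, 0.038 and 0.015 over all loci. At the deposited scaling the order in both ribosome fractions was therefore WT, *ppp-1(wrm10)*, *ppp-1(wrm15)* from high to low for each member, whereas after rescaling to a common sum 6 of the 10 were below WT in polysomal RNA of *ppp-1(wrm10)* and 4 were not. The steps between the alleles were small for some genes, with *unc-54* polysomal RNA at 741 and 726 FPKM.

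The pharyngeal heavy chains parted from the other members in the total RNA of *ppp-1(wrm15)*. *myo-1* and *myo-2* were each at -0.47 on the log2 scale against WT, while the other 8 ranged from -0.24 (*unc-22*) to -0.0023 (*tnt-2*). In *ppp-1(wrm10)* the pair was at -0.023 and -0.0096. Of the other genes of the pharyngeal thin filament, *tnt-4* (troponin T) was at 12.7, 12.7 and 9.08 FPKM in total RNA, *tnc-2* (troponin C) at 13.7, 12.8 and 11.2 FPKM and *tni-4* (troponin I) at 34.8, 30.5 and 28.2 FPKM. In *ppp-1(wrm15)* their log2 differences were -0.48, -0.30 and -0.30 in total RNA, and *tnc-2* and *tnt-4* were also lower by 1.5-fold in polysomal RNA (-0.75 and -0.59) and monosomal RNA (-0.72 and -0.59). The pharynx transcription factor *pha-4*, the single other pharynx marker past the minimum, was at 2.099, 2.30 and 2.09 FPKM in total RNA (0.13 and -0.0076 against WT). In monosomal RNA *pha-4* was at 2.64, 2.80 and 2.73 FPKM (0.082 and 0.047), and so did not follow the pharyngeal filament genes. The pharynx marker *ceh-22* was under 1 FPKM in all 9 groups. It was at 0.433, 0.431 and 0.243 FPKM in total and at 0.379, 0.487 and 0.317 FPKM in monosomal RNA, and so was lowest in *ppp-1(wrm15)*. Without *myo-1* and *myo-2* the other 8 members had a median of -0.11 in total, -0.28 in polysomal and -0.45 in monosomal RNA of *ppp-1(wrm15)*. Differences of this size were not limited to pharyngeal genes. In total RNA of *ppp-1(wrm15)* all 6 body wall markers past the minimum, described below, were below WT. Their median was -0.28, with a range from -0.50 for *unc-29* (1.45 FPKM in WT) to -0.012 for *acr-16*. The other troponin gene *tnt-3* was at -0.38.

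Markers of body wall muscle that are not filament genes, namely the transcription factors *hlh-1* and *unc-120* and subunits of muscle acetylcholine receptors, summed to 16.9 FPKM in total RNA of WT, 16.3 for *ppp-1(wrm10)* and 14.2 for *ppp-1(wrm15)*. On the log2 scale their sum was -0.047 and -0.24 against WT in total, 0.0084 and -0.20 in polysomal, and 0.033 and -0.23 in monosomal RNA. In *ppp-1(wrm10)* this sum thus lay near WT in monosomal RNA, where the members' median was -0.36. Of the 6 body wall markers past the minimum, 4 and 5 were below WT in monosomal RNA of *ppp-1(wrm10)* and *ppp-1(wrm15)*. Their list medians were -0.049 and -0.29, so in *ppp-1(wrm10)* most of that list lay below WT, against the direction of its sum. Marker sums in monosomal RNA of *ppp-1(wrm10)* and *ppp-1(wrm15)* were -0.52 and -0.38 for intestine, -0.44 and -0.30 for hypodermis, which rests on the collagen *col-19* (600.5 of 668 FPKM in WT), -0.25 and -0.097 for germline, -0.20 and -0.19 for neurons, and 0.32 and 0.33 for sperm. Of the 5 hypodermis markers past the minimum 2 were below WT in each allele, with list medians of 0.56 and 0.51, so most of that list lay above WT, against the direction of its sum. Of the others, 8 and 8 of 8 intestine, 9 and 5 of 9 germline, 5 and 7 of 8 neuron and 2 and 1 of 5 sperm markers were below WT. The part of these tissues in the members' differences was not tested.

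Beyond the members, 50 of 52 other listed genes were found, and all 50 passed the minimum. Most are genes of the sarcomere, its attachments and its calcium supply, but the nonmuscle myosins *nmy-1* and *nmy-2* are also among them. The medians and counts of the 50 include these nonmuscle genes. Against WT their median log2 difference was -0.017 for *ppp-1(wrm10)* and -0.16 for *ppp-1(wrm15)* in total RNA, -0.069 and -0.23 for polysomes and -0.22 and -0.34 for monosomes. Of the 50, 46 and 47 lay below WT in the monosome fraction, 36 and 46 in the polysome fraction and 29 and 43 in the lysate. The members' medians lay further below WT than these in both ribosome fractions, but not in total RNA. None of the 50 passed 1.5-fold in the same direction in both alleles in any fraction, and the single gene higher by that much was *ccb-1*, a calcium channel beta subunit, in total RNA of *ppp-1(wrm10)* (6.26 FPKM in WT, 9.40 for *ppp-1(wrm10)* and 4.31 for *ppp-1(wrm15)*).

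By role, the 8 other troponin genes had monosomal medians of -0.28 for *ppp-1(wrm10)* and -0.47 for *ppp-1(wrm15)*, and all 8 were below WT in each allele. Their medians were -0.11 and -0.35 in polysomal RNA and -0.075 and -0.28 in total RNA. In *ppp-1(wrm15)* these troponins thus lay further below WT than the members, whose medians were -0.30 in polysomal and -0.12 in total RNA. The 4 actins had -0.21 and -0.26, the 15 genes of dense bodies and attachment sites -0.19 and -0.33, and the giant proteins *unc-89* (obscurin) and *ttn-1* (titin) -0.26 and -0.16 for *ppp-1(wrm10)* and -0.39 and -0.35 for *ppp-1(wrm15)*. Like *unc-22*, these giants were higher in monosomal than in polysomal RNA, with *ttn-1* at 15.1 FPKM in polysomal and 38.3 in monosomal RNA of WT and *unc-89* at 38.7 and 62.7 FPKM. The myosin light chains *mlc-1* and *mlc-2*, with 510 coding bases each, were at 476 and 1183 FPKM in polysomal and at 714 and 1301 FPKM in monosomal RNA of WT. In WT they were thus higher in monosomes than in polysomes, while *mlc-3*, of similar length, was lower in monosomes. In the mutants this held for *mlc-1* but not for *mlc-2*. *mlc-2* was at 1126 FPKM in polysomal and 1055 in monosomal RNA of *ppp-1(wrm10)*, and at 986 and 988 FPKM in *ppp-1(wrm15)*. *mlc-1* and *mlc-2* are close in sequence, and nothing is stated on how reads common to both were shared out.

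The highest mean log2 polysome/total ratios among the 50 other listed genes were those of *tnt-4* at 1.08, *unc-95*, a protein of dense bodies and M-lines, at 1.07 and *tni-3*, a troponin I, at 1.06. The lowest were those of *ccb-1* at -0.47, *unc-94*, a tropomodulin, at -0.44 and *nmy-2*, a nonmuscle myosin, at -0.31.

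**Figure D4:**
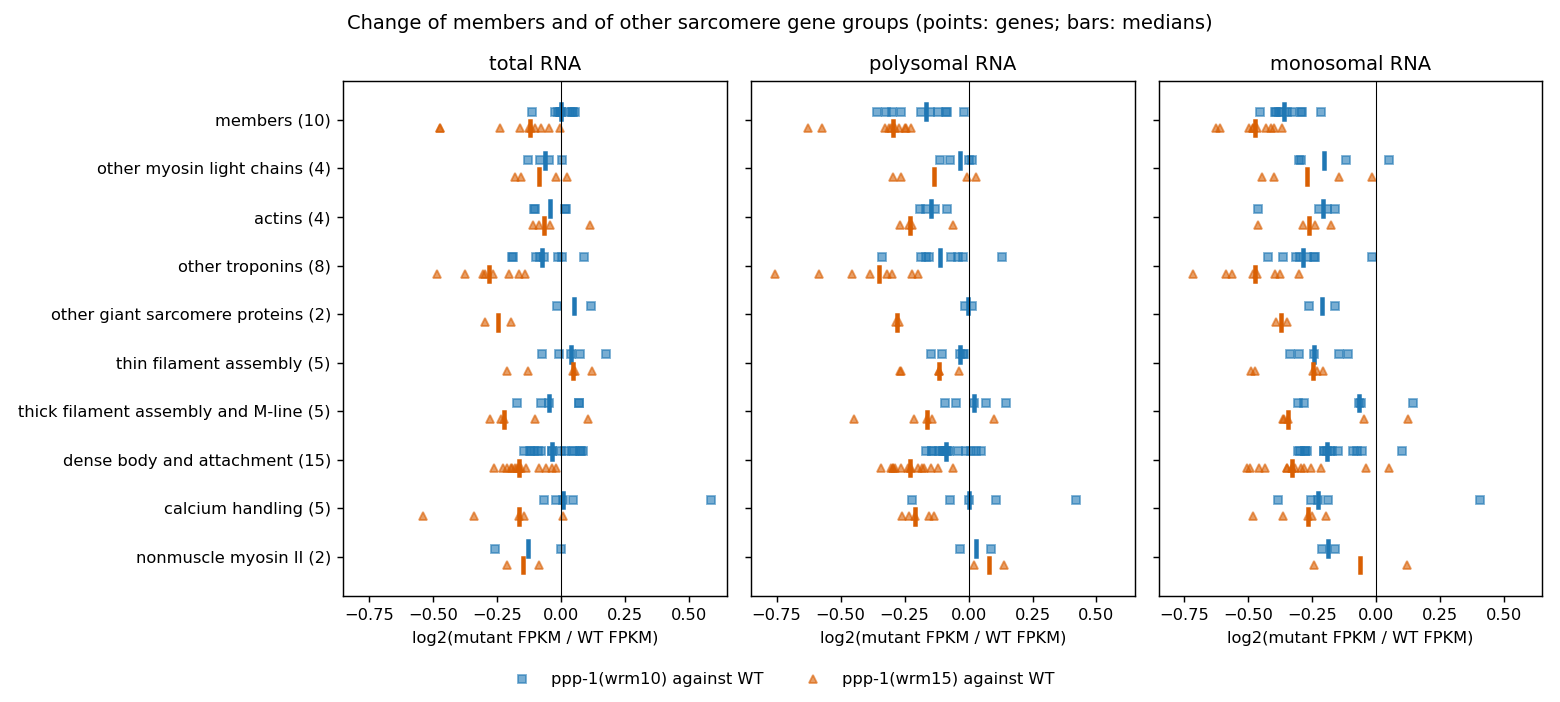
Log2 ratio of mutant to WT pooled FPKM for the 10 members and 9 groups of other sarcomere and related genes, in total, polysomal and monosomal RNA. Small points are single genes, vertical bars are group medians, and the number of genes is in brackets; in monosomal RNA the bars of the members stand at -0.36 and -0.47.

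The loci whose log2 profile over the 9 groups was most like the members' mean profile, among 5794 loci with at least 10 FPKM in all groups, were *R02D3.1* (Pearson's r = 0.979), *tyr-4* (0.978), *F49E2.5* (0.977), *F54D5.12* (0.975) and *ddx-27* (0.975). None of them is in the lists of sarcomere genes or markers. *R02D3.1* was at 54.7, 47.6 and 46.0 FPKM in total, 92.9, 75.9 and 72.6 in polysomal and 69.3, 55.9 and 50.1 in monosomal RNA of WT, *ppp-1(wrm10)* mutants and *ppp-1(wrm15)* mutants. The members themselves correlated with their mean profile, to which each contributes, from 0.36 (*tnt-2*) and 0.39 (*unc-22*) through 0.59 (*unc-15*) and 0.83 (*unc-54*) to 0.98 (*myo-3*). The members with the lowest values are those that differed from the rest in their sharing between polysomes and monosomes.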

How the data were processed

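Total, polysomal and monosomal RNA of WT, *ppp-1(wrm10)* mutants and *ppp-1(wrm15)* mutants was compared over 9 groups of 4 libraries. According to the methods and the processing notes, the authors mapped reads with HISAT2 2.1.0 (WBcel235, Ensembl 91), assembled transcripts with StringTie 1.3.4d, merged them, and quantified and compared them with Cufflinks 2.2.1 (Cuffquant, Cuffdiff). As deposited, the authors’ FPKM hold 1 pooled value per group and locus. Which library normalization was set is not given in the sources used here. Effective length corrections and the choice of loci by the assembler can shift levels. The deposited table also holds the authors' log2 fold changes, test statistics, p-values and q-values for each pair of groups, which were not used here. With neither counts nor values per library, depth, precision and tests could not be given.

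Log2 ratios were computed without a pseudocount on loci with at least 1 FPKM in all 9 groups, with Python 3.11.15, pandas 2.3.3 and scipy 1.17.1, and checked on simulated data. Coding lengths came from Ensembl 115 of the same build and were found for 88.5% of these loci. Named genes were all members, listed sarcomere genes past 1.5-fold in the same direction in both alleles, the 3 highest and 3 lowest polysome/total ratios, and the 5 most alike profiles. *tnc-2*, *tni-4*, *tnt-3*, *unc-29*, *acr-16*, *unc-89*, *ttn-1*, *mlc-1* and *mlc-2* were named after their values were seen. Members and lists were chosen with earlier results of these data known. Alternatives changed the fold (a lower mark and 2), the pseudocount (0.1 and 1 FPKM), the scaling, the minimum (none and 10 FPKM) and the denominator.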

Additional observations from a re-analysis of the deposited data

How the results depend on the processing

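No paired analysis was possible because only pooled values per group were used, and for the same reason no replicate could be left out. A count was taken as moved when it differed by over 1.5 times, and a median or rho when it differed by over 0.1. Using no minimum or a minimum of 10 FPKM moved none of the 37 results so compared, nor did adding 0.1 FPKM, although the polysome/monosome count went from 3 to 2 with 0.1 or 1 FPKM added. Adding 1 FPKM lowered the count of members 1.5-fold lower in monosomal RNA of *ppp-1(wrm15)* to 1. With a lower fold mark (0.32 on the log2 scale), 2 members were lower in total RNA of *ppp-1(wrm15)* (8.98% of all loci), 2 and 3 in polysomal RNA (8.27% and 9.79%) and 7 and 10 in monosomal RNA (10.6% and 14.1%) of *ppp-1(wrm10)* and *ppp-1(wrm15)*, and 2 in polysome/total in *ppp-1(wrm10)* (8.07%). In all genotypes 6 members then passed in polysome/total (32.4%) and 5 in polysome/monosome (28.2%). With a mark of 2-fold, the counts for polysomal and monosomal RNA of *ppp-1(wrm15)*, polysome/total and monosome/total were 0, and that for polysome/monosome was 1.

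Centring each group on the median of all loci gave 2 members 1.5-fold lower in polysomal RNA (4.52% of all loci) and 6 in monosomal RNA (7.52%) of *ppp-1(wrm15)*, 9 past the mark in polysome/total (36.8%), and monosomal medians of -0.48 and -0.62. The ratio medians in WT, *ppp-1(wrm10)* mutants and *ppp-1(wrm15)* mutants became 1.03, 0.79 and 0.87 for polysome/total, 0.68, 0.25 and 0.28 for monosome/total, and 0.48, 0.71 and 0.70 for polysome/monosome.

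Rescaling each group to one common sum gave 0 members 1.5-fold lower in polysomal and 0 in monosomal RNA of *ppp-1(wrm15)*, 10 past the mark in polysome/total (47.2% of all loci) and 5 in monosome/total (37.7%), the last near the background. The median in total RNA of *ppp-1(wrm10)* turned to 0.011, that in polysomal RNA of *ppp-1(wrm10)* became -0.028, those in monosomal RNA -0.22 and -0.31, and those of the polysome/total difference -0.086 and -0.013. The ratio medians became 1.13, 1.02 and 1.16 for polysome/total and 0.93, 0.70 and 0.86 for monosome/total, and 0.41 for polysome/monosome in *ppp-1(wrm15)*. This rescaling moved the median of all loci in monosomal RNA from -0.060 to 0.076 in *ppp-1(wrm10)* and from -0.039 to 0.12 in *ppp-1(wrm15)*. With monosomal RNA as the denominator, the polysome/total differences turned to 0.15 and 0.15. Leaving out *unc-22*, an alternative chosen after seeing the data, gave a rho of -0.60 with coding length in WT. Depth per library is unknown and sets no limit that could be stated.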
